A study of Mus musculus with 8 samples.

Results

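The H3K27me3 regions at 43 autosomal imprinted genes were examined in female neural stem cells (NSCs) that were WT or homozygous for the MommeD43 variant of Smchd1. A member was any region of the deposited table that overlapped the GRCm38 body of an imprinted gene, extended by 5 kb on each side, and each region was counted once. By this rule 28 regions were found among 11707 autosomal regions and 13585 regions in all, and they lay at 28 of the 43 genes (65.1%). The genes belong to 14 imprinted clusters, of which 12 had a region.

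Genomic imprinting restricts the expression of a gene to the copy inherited from a given parent, and most imprinted genes sit in clusters governed by a control region that is DNA-methylated on that copy or the other. H3K27me3 is the repressive histone mark placed by Polycomb repressive complex 2, and at imprinted clusters it is known to contribute to the silent copy of some genes, in particular those under the long noncoding RNAs Kcnq1ot1 and Airn. SMCHD1 is a noncanonical SMC protein needed to keep the inactive X chromosome and several autosomal gene clusters silent, imprinted genes among them. The parental copies cannot be told apart in the values here, so a value is the sum over both copies of a gene.

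The study had 8 samples. The H3K27me3 ChIP-seq libraries came from 3 cell lines of genotype Smchd1GFP+/+ (WT) and 3 of genotype Smchd1GFPMommeD43/MommeD43 (MommeD43), and each genotype had 1 whole cell extract library without antibody. All the lines were female NSCs on the C57BL/6J strain, grown from cortices of embryos at day 14.5 and kept for under 10 passages, and in all of them the endogenous Smchd1 gene carried a GFP tag, so an untagged control is not among the groups. MommeD43 is a missense variant of Smchd1. Each line is a separate primary culture, and the table gives 1 log2 value per region and genotype, which is the authors' pooled mean over the 3 ChIP libraries. No difference described here therefore has a replicate check, and none was tested. The authors regard ChIP-seq as poorly suited to comparing levels of a histone mark. A difference here is thus one of normalized counts, not of the amount of the mark.

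The labelled cell type could be set only against the mark itself, which does not measure expression. Of 14 NSC marker genes 9 had an H3K27me3 region within 5 kb, as did 16 of 21 autosomal marker genes of other cell types and 42.6% of the autosomal protein-coding genes not among the imprinted ones. No region lay at the NSC genes Sox2, Sox9, Fabp7, Vim and Nr2e1. None lay at Pecam1, Cdh5, Myf5, Olig2 and Aqp4 among the markers of other cell types. These genes are named here because they had none. The NSC markers with the highest mean values were Sox1, Hes5, Hes1 and Nes. Among markers of other cell types, the highest mean values were at the endoderm gene Gata4, the neuronal gene Rbfox3, the trophectoderm and gut gene Cdx2 and the pericyte gene Pdgfrb. Read depth in the imprinted regions, recovered from the values as a geometric mean count per library, lay between 31.2 and 7134 reads in WT (median 346) and between 35.05 and 9027 reads in MommeD43 (median 370). The 95% counting intervals below rest on the Poisson error of these counts alone, the least error a difference can have. They leave out all variation between cell lines, and since the reads carry no molecular identifiers they are not independent molecules.

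Promoter sequences were taken from the RefSeq annotation of GRCm38.p6, some from inside a listed region and some from outside all of them. A region is wider than a promoter, so lying inside it does not show that these bases themselves carried the mark. The bases upstream of the start are printed on the strand of the gene, without any exon, and capitals mark CG dinucleotides, the sites of DNA methylation. Inside a region lay chr7:6730432-6730577 (minus strand), the 146 bases between the starts of Peg3 and Usp29, chr6:3763631-3763873 (minus strand) before Calcr, chr7:62420154-62420403 (minus strand) before Mkrn3, chr2:174284070-174284319 (plus strand) before the most upstream Gnas transcripts, and chr11:12037421-12037670 (minus strand) before Grb10. In no region lay chr17:12769707-12769956 (minus strand) before Igf2r and chr12:109540746-109540995 (plus strand) before Meg3. The stretches at Calcr and Grb10 lie before starts inside the longest gene body in GENCODE, not at its outermost 5′ end. These were chosen because the regions at Peg3, Calcr, Mkrn3 and Gnas had some of the larger differences between genotypes, Grb10 had the highest count of CG dinucleotides, and Igf2r and Meg3 are well known imprinted genes that had no region.
Peg3: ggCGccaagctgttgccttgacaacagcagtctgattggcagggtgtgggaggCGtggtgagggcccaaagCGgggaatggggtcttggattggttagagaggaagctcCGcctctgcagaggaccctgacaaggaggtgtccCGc
Calcr: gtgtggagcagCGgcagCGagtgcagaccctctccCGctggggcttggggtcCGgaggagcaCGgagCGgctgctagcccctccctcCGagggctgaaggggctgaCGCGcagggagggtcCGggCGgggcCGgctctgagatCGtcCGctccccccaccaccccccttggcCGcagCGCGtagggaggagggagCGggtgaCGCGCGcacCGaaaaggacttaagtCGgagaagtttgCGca
Mkrn3: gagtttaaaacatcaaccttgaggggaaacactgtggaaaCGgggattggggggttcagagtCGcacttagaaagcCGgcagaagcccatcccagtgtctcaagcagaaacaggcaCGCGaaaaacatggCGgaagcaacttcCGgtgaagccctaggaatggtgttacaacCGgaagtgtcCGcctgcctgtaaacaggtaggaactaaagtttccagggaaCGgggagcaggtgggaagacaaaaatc
Gnas: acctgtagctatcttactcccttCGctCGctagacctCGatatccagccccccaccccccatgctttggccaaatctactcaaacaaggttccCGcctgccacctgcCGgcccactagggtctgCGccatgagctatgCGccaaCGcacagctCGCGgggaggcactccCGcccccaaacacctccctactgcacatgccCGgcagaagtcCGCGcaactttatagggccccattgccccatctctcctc
Grb10: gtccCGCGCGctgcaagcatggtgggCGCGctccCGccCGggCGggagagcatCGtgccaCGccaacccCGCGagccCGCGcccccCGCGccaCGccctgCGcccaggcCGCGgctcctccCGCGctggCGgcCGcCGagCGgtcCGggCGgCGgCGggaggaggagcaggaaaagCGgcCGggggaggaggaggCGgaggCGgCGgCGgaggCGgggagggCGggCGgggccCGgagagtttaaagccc
Igf2r: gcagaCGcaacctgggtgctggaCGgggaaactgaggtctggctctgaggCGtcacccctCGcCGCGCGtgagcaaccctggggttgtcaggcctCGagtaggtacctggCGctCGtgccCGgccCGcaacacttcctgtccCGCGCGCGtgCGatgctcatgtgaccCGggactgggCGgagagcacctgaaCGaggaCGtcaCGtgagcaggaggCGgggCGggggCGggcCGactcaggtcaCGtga
Meg3: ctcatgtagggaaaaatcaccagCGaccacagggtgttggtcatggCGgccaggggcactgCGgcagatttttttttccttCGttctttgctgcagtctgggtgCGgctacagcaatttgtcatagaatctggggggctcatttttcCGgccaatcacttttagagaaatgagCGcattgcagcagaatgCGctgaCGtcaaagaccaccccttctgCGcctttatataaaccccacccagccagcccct

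The printed promoters held between 5 (Peg3) and 40 (Grb10) CG dinucleotides. Those without a region were not poor in CG, with 27 at Igf2r and 10 at Meg3. The promoter table matched 33 of the 43 genes and gave 51 promoters of 250 bases, of which 23 lay in a region. The median number of CG dinucleotides was 10 in the imprinted promoters inside regions and 11 in those outside. Over all 31396 autosomal promoters the median was 9 inside regions and 5 outside. The letters TGCCGC, which are bound by ZFP57, a zinc-finger protein that maintains methylation at imprinting control regions, were searched on both strands. They occurred in 9 of the 51 imprinted promoters (17.6%), in 2 of the 23 inside regions and in 7 of the 28 outside. Over all autosomal promoters the share was 8.70%, with 10.3% inside regions and 8.12% outside. The 7 include a pair of Mest promoters that overlap almost wholly and count the same occurrences. In each of them Mest, a paternally expressed hydrolase gene with no region, had 2 occurrences and 14 CG dinucleotides, and among the sequences above Calcr and Meg3 had 1 each.

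An H3K27me3 region lay within 5 kb of 65.1% of the imprinted genes, against 8841 of 20766 other autosomal protein-coding genes (42.6%). The gene start itself lay in a region for 20 of the 43 genes (46.5%), against 28.9% of the other genes. Of the 23 genes listed as maternally expressed 14 had a region, and of the 18 listed as paternally expressed 12 did. The expressed copy was assigned to each gene and is not given by the labels. Whether a gene is imprinted in these NSCs was not examined. All these shares are descriptions, since neighbouring imprinted genes often share a region. The 28 imprinted regions had a median length of 18575 bp and a median GC content of 45.5%, against 10400 bp and 46.3% for the other autosomal regions. Per kilobase, their median WT value was 58.0 normalized counts, against 36.0 in the other autosomal regions, and their median MommeD43 value was 41.6, against 37.0.

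Regions covered very different shares of the gene bodies. Cdkn1c, Phlda2, Slc22a18, Ascl2, Igf2, H19, Ndn, Magel2, Mkrn3 and Klf14 had their whole bodies inside regions, and Kcnq1 had 86.6% of its body covered, Th 81.4% and Calcr 57.3%. By contrast Peg3 had 9.72% of its body covered, Sgce 9.74%, Plagl1 6.46%, Usp29 4.91% and Ppp1r9a 2.3%. The 15 regions that held the start of an imprinted gene's body, as GENCODE gives it, had a median density of 89.5 normalized counts per kilobase in WT against 86.8 in MommeD43. The other 13 regions, which include those at Th and at Peg10 and Sgce where starts of shorter transcripts lie inside, had medians of 29.2 and 23.95. The highest WT density lay at Rasgrf1, which encodes a Ras guanine nucleotide exchange factor, with 144.8 normalized counts per kilobase in WT against 144.9 in MommeD43, and the highest MommeD43 density lay at Igf2, with 136.2 in WT and 157.9 in MommeD43. The lowest of both genotypes lay beside Impact, a regulator of translation, with 18.7 and 16.9.

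**Figure D1:**
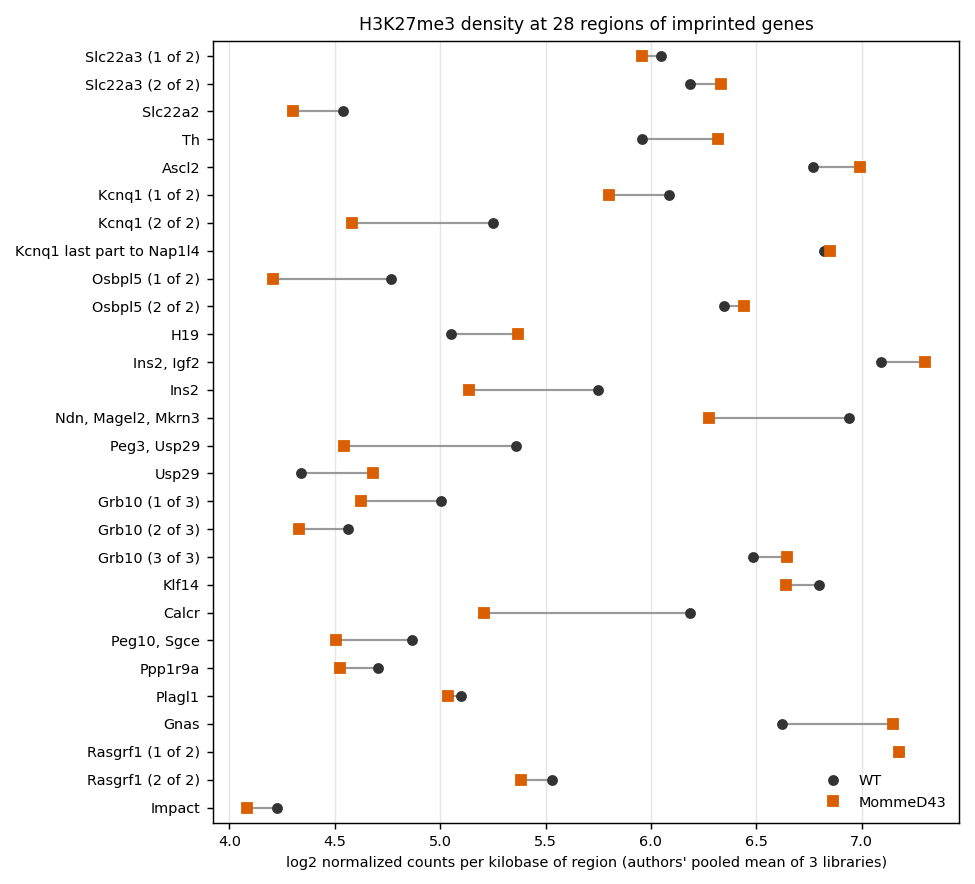
Density of H3K27me3 at the 28 imprinted regions, as log2 normalized counts per kilobase, with circles for WT and squares for MommeD43, each the authors' pooled mean over 3 libraries, and 1 line per region grouped by cluster. The square lies well to the left at Calcr, Peg3 with Usp29, the second Kcnq1 region, Ndn with Magel2 and Mkrn3, Ins2 and the first Osbpl5 region. At Gnas it lies to the right, and the symbols coincide at the first Rasgrf1 region.

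Across the imprinted regions the level of H3K27me3 was closely related between genotypes, with Pearson's r of 0.989 over the 28 regions against 0.960 over the other autosomal regions. These values grow with region length, and per kilobase, on the log2 scale, r was 0.936 and 0.812. The median difference lay below that of the other autosomal regions. This difference, MommeD43 minus WT on the log2 scale, had a median of -0.14 with quartiles of -0.37 and 0.15, whereas the other autosomal regions had a median of 0.075 with quartiles of -0.21 and 0.33. The value was higher in MommeD43 in 11 of the 28 regions (39.3%) and lower in 17, against 57.7% higher among the other autosomal regions. No imprinted region was higher by 1 or more, where 2.29% of the other autosomal regions were, and none was lower by 1 or more, where 2.94% were. The differences ran from -0.98 at Calcr to 0.53 at Gnas. When every value was scaled so that the regions of both genotypes had equal totals, which moved the median of all autosomal regions to -0.17, 4 of the 28 regions were higher in MommeD43, against 32.9% of the other autosomal regions, and the imprinted median was -0.39. Summed over 1085.3 kb, the imprinted regions held 93.0 normalized counts per kilobase in WT against 88.2 in MommeD43, while the other autosomal regions held 75.4 and 87.8. Their share of all counts in the table was 0.582% in WT and 0.466% in MommeD43. The 95% counting interval left out 0 in 20 imprinted regions, 9 of them higher and 11 lower in MommeD43. Among the other autosomal regions it left out 0 in 63.0%, with 37.9% higher and 25.1% lower. Those regions had fewer reads per library, with medians of 113 in WT and 143 in MommeD43. Their median counting error was 0.11, against 0.063 in the imprinted regions. The correlations and shares in this paragraph thus compare regions of unlike depth.

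The difference between genotypes followed GC content in imprinted regions as in others. Over the 28 regions Pearson's r between the difference and GC content was 0.67 and Spearman's rho 0.66, and over all autosomal regions rho was 0.58. As an alternative to matching, the running median of the difference over 40 bins of GC content was subtracted, which is called removal of the GC trend. The regions share libraries, so the coefficients describe the pooled libraries and carry no p-value. Each imprinted region was therefore set against the 100 other autosomal regions nearest to it in GC content and mean value, and the difference minus the median of those 100 is called the matched difference. The matched difference had a median of -0.17 with quartiles of -0.40 and 0.017, and was below 0 in 20 of the 28 regions. For the other autosomal regions treated alike, the median was -0.0021 with quartiles of -0.20 and 0.21, and 49.7% were above the median of their matched regions. It ran from -0.75 at Peg3 with Usp29 to 0.38 at Ppp1r9a. Over the 28 regions its rho with GC content was -0.12. It placed 3 imprinted regions below the 5th percentile of their matched regions, where 5.98% of the other autosomal regions lay, and none above the 95th percentile, where 6.08% lay. The 3 regions were those at Peg3 with Usp29, in the middle of Kcnq1, and beside Slc22a2. Regions of 1 locus are not separate observations. In the adjacent Igf2/H19 and Kcnq1/Cdkn1c clusters the matched difference was below 0 in 3 of 3 and 6 of 7 regions. At Peg10/Sgce and at Grb10 it was below 0 in 1 of 3 each. For 26 of the 28 regions the matched regions had a median GC content within 1 percentage point. The exceptions were Calcr and the Ndn, Magel2 and Mkrn3 region, which are long and poor in GC. Set against the other regions within 1 Mb instead, a comparison added after the data were seen, the median was -0.017 and 13 regions were above 0.

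**Figure D2:**
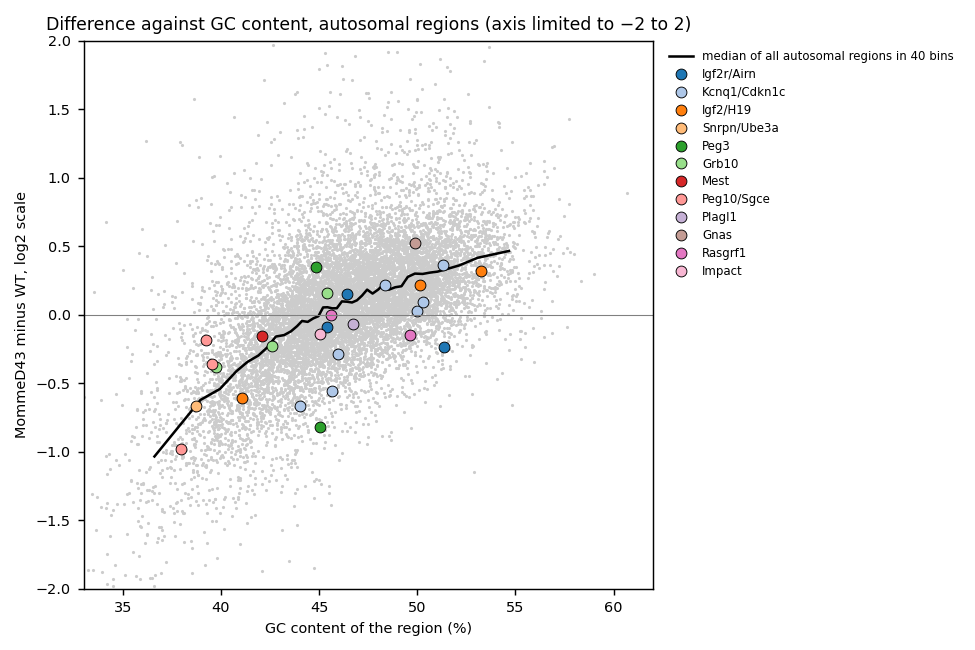
Difference between genotypes (MommeD43 minus WT, log2 scale) against the GC content of the region in percent, with grey points for all autosomal regions, a black line for their median in 40 bins of GC content, and coloured points for the 28 imprinted regions by cluster. The vertical axis is limited to the range from -2 to 2, which holds all 28 imprinted points, and Peg3 with Usp29 at -0.82 lies far below the line at its GC content of 45.1% while Calcr at -0.98 lies closer to it at 38.0%.

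**Figure D3:**
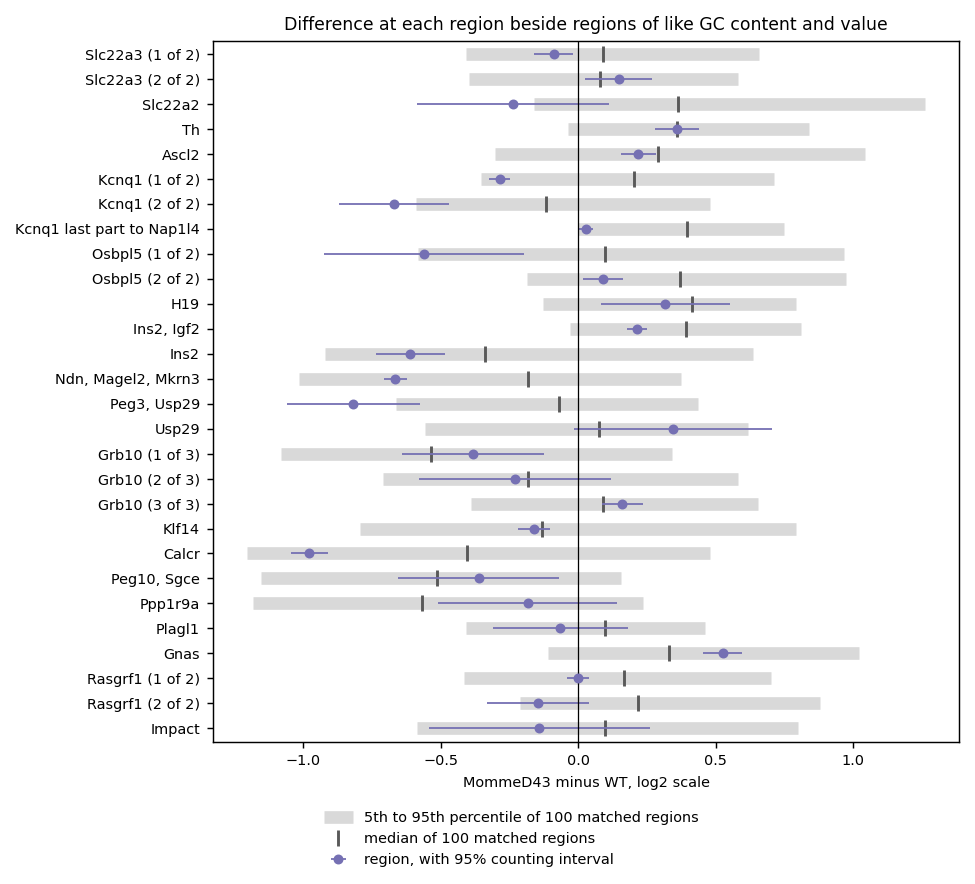
Difference between genotypes (MommeD43 minus WT, log2 scale) at each of the 28 imprinted regions as a point with its 95% counting interval, beside a grey bar from the 5th to the 95th percentile and a tick at the median of its 100 matched regions. The points of Peg3 with Usp29, the second Kcnq1 region and Slc22a2 lie to the left of their grey bars, and no point lies to the right of its bar.

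At the Peg3 cluster the region over the shared promoter had a lower H3K27me3 value in MommeD43. Peg3 encodes a paternally expressed zinc-finger protein, Usp29 a ubiquitin peptidase, and their starts face away from each other across the 146 bases printed above. The region at chr7:6727851-6736750 spans both starts and had a value of 8.51 in WT and 7.70 in MommeD43, a difference of -0.82 with a 95% counting interval of -1.06 to -0.58. The matched median was -0.069, so the matched difference was -0.75, the lowest of the 28, and 4% of the matched regions were lower. The depth was 112 reads per library in WT and 78.7 in MommeD43. The region was 8900 bp long and held 20.4 CG dinucleotides per kilobase. Removing the GC trend left the difference at -0.83. A second region, at chr7:6780501-6785950 within Usp29, went the other way, with 6.78 in WT and 7.13 in MommeD43, but its difference of 0.35 had a counting interval from -0.014 to 0.71. The 2 other regions within 1 Mb had a median difference of -0.53. The remaining gene of the cluster, Zim1, a maternally expressed zinc-finger gene, had no region within 31401 bp.

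Long, GC-poor regions at Ndn, Magel2 and Mkrn3 and at Calcr were lower in MommeD43, as were their surroundings. Ndn and Magel2 encode MAGE-family proteins and Mkrn3 a ring-finger protein, all expressed from the paternal copy and all in the domain that corresponds to the human Prader-Willi syndrome locus. A single region of 95750 bp, chr7:62340051-62435800, covered these 3 genes whole. Its value was 13.52 in WT and 12.86 in MommeD43, or 122.9 and 77.5 normalized counts per kilobase, a difference of -0.66 (95% counting interval -0.71 to -0.62). GC content was 38.7%, and the matched difference was -0.48, with 19% of the matched regions lower. The matched regions were richer in GC, with a median of 41.5%, and removal of the GC trend brought the difference to 0.0022. Within the span of the cluster 3 regions that touch no imprinted gene of the list had differences from -0.89 to -0.57. The partners in the cluster had no region. Peg12 lay 26071 bp from the nearest, and the splicing gene Snrpn and the ubiquitin ligase gene Ube3a lay 2066482 and 1633600 bp away.

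Calcr, the calcitonin receptor gene at the edge of the Peg10/Sgce cluster, had the largest difference in size. The region chr6:3719451-3787300 was 67850 bp long and covered the starts of all its transcripts and 57.3% of its body. The bases printed above lie before an internal start, downstream of the outermost 5′ end that GENCODE gives Calcr, whose own promoter held 2 CG dinucleotides. The value was 12.27 in WT and 11.29 in MommeD43, or 72.8 and 36.9 normalized counts per kilobase, a difference of -0.98 (95% counting interval -1.05 to -0.91). It is poor in GC at 38.0%, and 13% of its matched regions were lower, with a matched difference of -0.57. Those matched regions had a median GC content of 40.1%, and removal of the GC trend left -0.18. The 9 other regions within 1 Mb had a median difference of -0.87. Within the span of the cluster 5 regions that touch no imprinted gene of the list had differences from -2.34 to 0.25, with a median of -0.97. The region beside the retrotransposon-derived gene Peg10 and within the sarcoglycan gene Sgce had 7.69 in WT and 7.33 in MommeD43, a difference of -0.36 (95% counting interval -0.65 to -0.069). The region within Ppp1r9a, which encodes the actin-binding protein neurabin, had 7.30 and 7.12, with an interval from -0.51 to 0.14. Both were above the median of their matched regions, by 0.15 and 0.38, since those had medians of -0.52 and -0.57. With the GC trend removed both turned higher in MommeD43, to 0.21 and 0.42. Asb4, an ankyrin-repeat gene, had no region within 155579 bp.

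The distal part of chromosome 7 holds the Igf2/H19 and Kcnq1/Cdkn1c clusters, and regions covered 68.0% and 58.1% of their spans. In the Igf2/H19 cluster the growth factor gene Igf2, paternally expressed, lay whole in the region chr7:142601901-142685200, with 13.47 in WT and 13.68 in MommeD43, a difference of 0.21 (95% counting interval 0.18 to 0.25). The region at H19, the maternally expressed noncoding RNA, had 8.02 and 8.34, a difference of 0.32 (0.083 to 0.55). Their matched regions, equally rich in GC, had higher medians, and the matched differences were -0.18 and -0.096. With the GC trend removed both turned lower in MommeD43, to -0.084 at Igf2 and -0.10 at H19, and Igf2 was also lower with equal totals (-0.029) and with the abundance trend removed (-0.091). A further region of 23000 bp fell within the long body that GENCODE gives the insulin gene Ins2 and had 10.27 in WT and 9.66 in MommeD43. It does not touch the shorter RefSeq body of Ins2, whose only region within 5 kb is the one described above at Igf2.

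In the Kcnq1/Cdkn1c cluster the value was higher in MommeD43 at the genes nearest to Igf2 and lower in the regions at the start and in the middle of Kcnq1, while the region that begins in its last part had nearly equal values. The region at Th, which encodes tyrosine hydroxylase, had 11.06 in WT and 11.42 in MommeD43, a difference of 0.36 (95% counting interval 0.28 to 0.44), and its matched regions had a median of 0.36 as well. The region at Ascl2, a basic helix-loop-helix gene of the trophoblast, had 11.82 and 12.04, a difference of 0.22 (0.16 to 0.28), and its matched difference was -0.073. With equal totals it turned to -0.023. Kcnq1 encodes a potassium channel, and the antisense RNA Kcnq1ot1 starts within it. The region chr7:143076951-143251600, which holds the Kcnq1 start, had 13.53 in WT and 13.25 in MommeD43, a difference of -0.29 (-0.32 to -0.25), and 7% of its matched regions were lower. The next region, chr7:143252601-143265550, had 8.95 and 8.28, a difference of -0.67 (-0.87 to -0.47), and 2% of its matched regions were lower. Both regions also lie within 5 kb of Kcnq1ot1. Their matched differences were -0.49 and -0.55, whereas the other regions within 1 Mb had median differences of 0.042 and 0.040. With the GC trend removed the differences were -0.35 and -0.61. They were -0.53 and -0.91 with equal totals, and -0.59 and -0.71 with the abundance trend removed.

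The longest imprinted region had nearly equal values in the genotypes. The region chr7:143307501-143513350, of 205850 bp, starts inside the last part of Kcnq1 and runs over the whole of the cell cycle inhibitor gene Cdkn1c, the organic cation transporter gene Slc22a18 and the placental growth regulator Phlda2, to within 229 bp of the nucleosome assembly gene Nap1l4. Its value was 14.51 in WT and 14.54 in MommeD43, with 7134 and 9027 reads per library, a difference of 0.028 (95% counting interval 0.0022 to 0.054). Its GC-rich matched regions had a median of 0.39, so the matched difference was -0.37 and 6% of them were lower. Its direction turned under every scaling and trend removal tried, to between -0.28 and -0.047. Osbpl5, an oxysterol-binding protein gene at the end of the cluster, had 11.50 and 11.59 over its start and 7.17 and 6.61 in a short region beyond its end, which held 44.1 and 37.2 reads per library. The direction over the Osbpl5 start turned with equal totals (-0.15) and with the GC trend (-0.20) or the abundance trend (-0.12) removed. Th apart, every region of the 7 in this cluster was below the median of its matched regions, with matched differences from -0.66 to -0.073. Summed over 501.8 kb the cluster held 88.6 normalized counts per kilobase in WT against 87.6 in MommeD43. Tspan32, Cd81 and Tssc4, which lie between Ascl2 and Kcnq1, had no region, and the nearest lay 16846, 9017 and 5858 bp away.

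**Figure D4:**
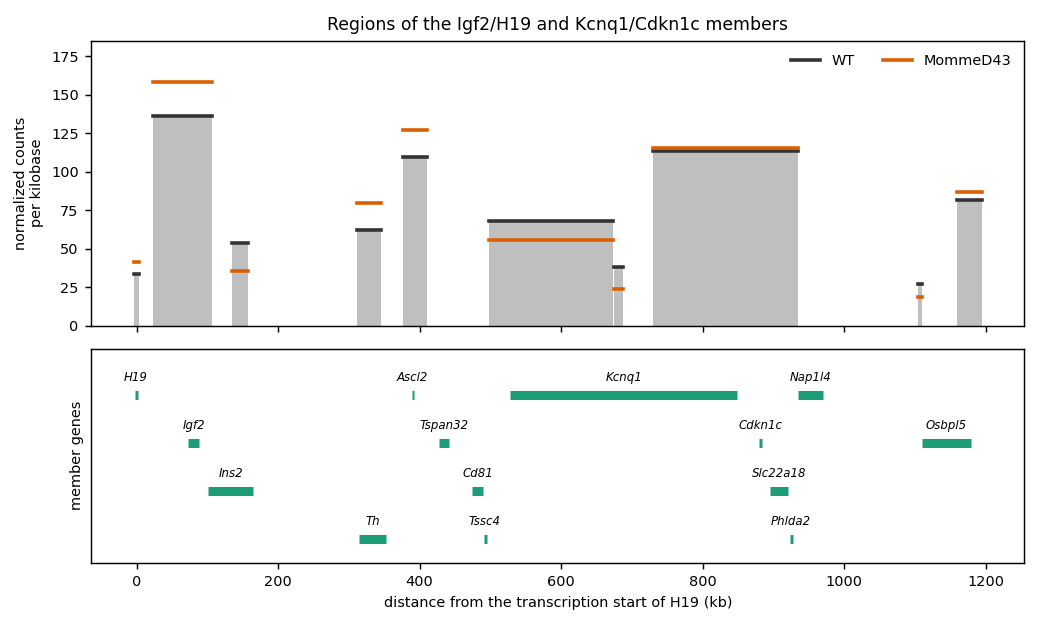
H3K27me3 density in normalized counts per kilobase over the regions of the Igf2/H19 and Kcnq1/Cdkn1c genes on chromosome 7, with grey blocks to scale along the distance in kilobases from the transcription start of H19, black lines for WT and orange lines for MommeD43, and the gene bodies drawn underneath. The orange line is above the black one at Igf2, Th and Ascl2, below it over the first and second of the 3 regions that overlap Kcnq1, and almost on it over the block from the last part of Kcnq1 to Nap1l4, and the stretch with Tspan32, Cd81 and Tssc4 is empty.

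Gnas had the highest difference of the 28 regions in the deposited values. The locus encodes the stimulatory G protein subunit alpha and several other transcripts, which differ in the parental copy they come from. The region chr2:174277251-174304150 held the most upstream start, printed above, and 31.8% of the gene body, while the promoters at 174327499 and further downstream lay outside. Its value was 11.37 in WT and 11.90 in MommeD43, or 98.6 and 141.9 normalized counts per kilobase, a difference of 0.53 (95% counting interval 0.45 to 0.60). It had 27.3 CG dinucleotides per kilobase, more than 97.6% of the other autosomal regions. The matched difference was 0.20, with 77% of its matched regions lower. With the GC trend removed the difference was 0.22, below the regions within Ppp1r9a (0.42) and within Usp29 (0.36). With the abundance trend removed it was 0.31, below the region within Usp29 (0.43). The 6 other regions within 1 Mb had a median difference of 1.07, so Gnas was higher by less than its surroundings.

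At the remaining clusters the differences ran from -0.38 to 0.16. Grb10, an adaptor protein of growth factor receptors whose parental expression depends on the tissue, had 3 regions. That over its CG-rich start, chr11:12015801-12046450, had 11.42 in WT and 11.58 in MommeD43, a difference of 0.16 (95% counting interval 0.087 to 0.23), and the 2 regions within the body had differences of -0.38 and -0.23. The matched differences were 0.072 over the start and 0.15 and -0.048 within the body. The direction over the start turned with equal totals (-0.081) and with the abundance trend removed (-0.055). That of the body region at -0.38 turned with the GC trend removed (0.18). Rasgrf1 had 13.32 in both genotypes over its start, a difference of 0.00048 (-0.039 to 0.040), and its second region had 8.89 and 8.74. The transcription factor gene Klf14, in the Mest cluster, lay in a region of 44000 bp with 12.26 and 12.10, a difference of -0.16 (-0.22 to -0.10) and a matched difference of -0.026, and with the GC trend removed it turned to 0.11. The region at the zinc-finger gene Plagl1 had 8.05 and 7.98 and lay at the start of the body that GENCODE gives, not at that of RefSeq. In the Igf2r/Airn cluster the organic cation transporter gene Slc22a3 had 10.01 and 10.15 over its start, a direction that turned with equal totals (-0.094), and 11.65 and 11.56 over its end. A short region 3513 bp from its relative Slc22a2 had 7.13 and 6.90, and 4% of its matched regions were lower, but its difference of -0.24 had a counting interval of -0.58 to 0.11. The region 2802 bp from Impact had 6.67 and 6.53, with 31.2 and 35.05 reads per library.

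The remaining 15 genes had no region within 5 kb. Besides those named above they were Igf2r, the receptor that clears IGF2, at 14806 bp from the nearest region, Mest at 192386 bp, its neighbour Copg2 at 44057 bp, and Nnat, a neuronal membrane protein gene, at 7279 bp. All the members of the Dlk1/Meg3 cluster were without a region: the Notch ligand-like gene Dlk1 at 362373 bp, the retrotransposon-like gene Rtl1 at 498743 bp and the noncoding RNA Meg3 at 450551 bp. The genes reached only through the 5 kb extension were Slc22a2, Nap1l4, Peg10 and Impact. The regions were drawn around peaks called in either genotype, so the level at a gene without a region was not analysed here.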

How the data were processed

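H3K27me3 ChIP-seq was measured in 3 WT and 3 MommeD43 lines, with 1 whole cell extract library per genotype. The authors trimmed reads with Trim Galore 0.4.4, aligned them with Bowtie2 2.3.4.1 to GRCm38.p6 and, in SeqMonk, extended the reads, called peaks for each genotype on merged replicates, widened the peaks and joined close ones. The labels name micrococcal nuclease and the methods shearing, so the fragmentation is uncertain. The deposited values are log2 read counts per region, scaled by the authors to total library size, 1 pooled value per genotype, not divided by length and with whole cell extract not subtracted. A count model had been planned should single libraries be given. With pooled values no test, SD or p-value could be had. The regions' start and end columns were used, and in 8582 of the 13585 rows the region's name ends earlier.

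The imprinted genes, marker lists and tests were chosen with earlier results of these data known. Every imprinted gene is named, and at most 4 genes per other list, by mean value. Other genes of those lists were picked by their values or for lacking a region, as stated beside each. Gene bodies came from GENCODE mouse release 21, and GC content from the GRCm38.p6 sequence. Matching used the 100 nearest other autosomal regions in standardised GC content and mean value. Depth was recovered because 3 times a mean log2 count is the log2 of a whole product: 1138 of 1139 WT and 681 of 684 MommeD43 products under 30000 were within 0.1 of a whole number, at 3.27 and 2.63 normalized counts per read. Scripts were tested on simulated data and ran under Python 3.11.15 with pandas 2.3.3, numpy 2.4.6, pyfaidx 0.9.0.4, scipy 1.17.1 and matplotlib 3.10.9. Alternatives were other scalings, removal of GC or abundance trends, a pseudocount, a filter on low values, other gene extensions and other matching.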

Additional observations from a re-analysis of the deposited data

How the results depend on the processing

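No paired analysis was possible because each genotype is 1 pooled column, and for the same reason no replicate could be left out. The median difference of the imprinted regions ran from -0.22 to -0.032 under the other settings, but was -0.39 when the totals of the regions were made equal. That scaling put 2 regions lower by 1 or more (5.69% of the other autosomal regions). Scaling to the autosomal median put 1 there (3.61%), and removal of the abundance trend 1 (2.71%). Taking all 40 regions between the outermost genes of each cluster was added after the data were seen. In the deposited values this choice put 2 there, against 2.94% of the other autosomal regions, which include some of the 40. The matched difference had a median from -0.18 to -0.095 under the other matchings and gene extensions, and -0.017 against the other regions within 1 Mb, also added afterwards. Without Calcr and the Ndn region, whose matched regions were richer in GC, it was -0.16. Between 24 (gene bodies alone) and 33 (20 kb extension) of the 43 genes had a region. Of the 140 differences of single regions over 5 settings, 25 changed sign, 10 of them on removal of the GC trend. The cause of these changes was not tested. Regions with under 100 reads per library in either genotype, such as those at Peg3, Plagl1 and Impact, have the widest counting intervals.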

Other observations

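At the edges of the Dlk1/Meg3 cluster, whose listed genes had no region, imprinted genes from a second list did have one. Dio3, which encodes the deiodinase that inactivates thyroid hormone, had 6.24 in WT and 8.93 in MommeD43, a difference of 2.69, with 23.2 and 185.7 reads per library. Begain, a postsynaptic protein gene at the other edge, had 10.68 and 12.54, a difference of 1.85. The matched differences were 2.29 and 1.39. Both genes were singled out after their values were seen, as was the potassium channel gene Kcnk9, with 9.33 and 10.36. These were the 3 genes of the second list that were higher by 1 or more, and 0 were lower by 1 or more, where 2.29% and 2.94% of the autosomal regions outside the report's 28 were. Of its 45 genes 21 had a region, and the 29 regions, 4 of them shared with the genes described above, had a median difference of 0.065 and a median matched difference of -0.017. By mean value the list was led by the region shared by Gpr1 and Zdbf2, with a difference of -0.14, and by the regions at Dlx5 (0.31) and Ano1 (0.26). Airn, the antisense RNA of the Igf2r cluster, named outside that rule, had 8.36 in WT and 8.05 in MommeD43.

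Of 5 genes whose imprint is known to rest on H3K27me3 rather than on DNA methylation, 3 had a region. Sfmbt2, a Polycomb-group gene, had 11.82 in WT and 12.15 in MommeD43. The amino acid transporter gene Slc38a4 had 7.91 and 8.98, a difference of 1.07, and Jade1 had 8.30 and 8.47. The median matched difference of these 3 regions was 0.34. In the same way the 9 regions of NSC markers had a median difference of 0.28 and a matched one of -0.067, with 1 higher by 1 or more, Pax6 at 1.18, chosen after its value was seen. The 31 regions at markers of other cell types had medians of 0.34 and 0.080, with Pdgfra at 1.92 and T at 1.39 higher by 1 or more and Ptprc at -1.30 lower, also chosen after their values were seen. The shares of the autosomal regions beside these counts were again 2.29% higher and 2.94% lower by 1 or more. Of the 31 regions 9 belong to Rbfox3, and without them, a choice made after the data were seen, the medians were 0.27 and 0.0035.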
